A study of Stylophora pistillata with 6 samples.

Results

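The 6 coral gene models described here, named after proteins of the extracellular matrix and of cell adhesion, were followed in day and night samples of Stylophora pistillata, a branching reef coral that houses photosynthetic algae in its cells. They are 6 of the 25769 gene models in the deposited table: HMCN1 (Spis23455) and HMCN2 (Spis14495), named after hemicentins, MMP19 (Spis5859), named after a matrix metalloproteinase, TIMP4 (Spis6044), named after an inhibitor of such proteases, and LSAMP (Spis21041) and EDIL3 (Spis20715), named after adhesion proteins. The names come from the study's list of gene models that differed between day and night, and are those of the best BLAST hit, for these 6 in human or mouse, so they say which known protein each coral protein resembles and not that it does the same work. All 6 were chosen by their day-to-night fold change and adjusted p, which the study had computed with DESeq2 on these same libraries. Their day-to-night differences are therefore given as descriptions, and no test of that contrast counts as evidence for them.

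Reads were counted in 6 libraries from branch apex tissue, 3 from day samples frozen when 1 h of light remained and 3 from night samples frozen when 1 h of darkness remained. Both groups shared every other condition: microcolonies cut from syngenic parent colonies, 10 days of recovery, 25 °C, a salinity of 38, feeding with rotifers and Artemia, and a cycle of 12 h of light, at 175 µmol photons m-2 s-1, and 12 h of darkness. The labels do not tie a replicate number to a parent colony, so errors and p-values reflect only the spread among these 6 libraries. The algal reads were aligned apart from those of the coral and are not in the table, and since only the gene models of the study's list carry names, the tissue was not checked against markers. Between 1552480 and 6619275 reads fell on coral gene models in the day libraries, and between 1916270 and 3062255 in the night libraries. Day replicate 3 was the deepest library, at 4.26 times the shallowest.

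The matrix of an animal tissue is a mesh of secreted proteins that holds cell layers together, and in corals it fills the mesoglea, the thin layer between the epithelia. Hemicentins are very large secreted matrix proteins with long runs of immunoglobulin repeats, known from Caenorhabditis elegans for joining cells of adjacent tissues across their basement membranes. Matrix metalloproteinases are zinc-dependent enzymes that cut matrix proteins, and tissue inhibitors of metalloproteinases (TIMPs) block them by binding the active site. LSAMP is, in mammals, an immunoglobulin-type adhesion protein anchored on the surface of neurons, and EDIL3 is a secreted vertebrate protein with EGF-like repeats and discoidin domains that binds integrins.

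MMP19 was the only one of the 6 for which the study designed primers, and its sequence is shown because the protease is set against its inhibitor below. The primers read 5′ to 3′ as follows, each 22 bases long, and in the amplicon the capitals mark the primer sites.
MMP19 forward primer: ggatcctacactcaagcctcct
MMP19 reverse primer: gagaacaatattggcggctaaa
MMP19 amplicon: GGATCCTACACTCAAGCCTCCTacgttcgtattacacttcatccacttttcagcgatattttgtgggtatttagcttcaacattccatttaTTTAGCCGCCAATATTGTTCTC
The amplicon is 113 bases long with a GC content of 39.8%, and its last 22 bases are the reverse complement of the reverse primer. On each strand 1 of 3 reading frames holds no stop codon, so the frames alone do not say which strand is coding. The coding sequence of Spis5859 was not used here, so the place of the amplicon in the gene model is not given.

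Across the 6 libraries HMCN1, HMCN2, MMP19 and TIMP4 were higher in day samples, and LSAMP and EDIL3 were lower. For all 6 members the day and night libraries did not overlap in CPM (counts per 1000000 reads on coral gene models, with libraries scaled by TMM), a pattern found in 10.1% of the 24180 gene models with a read. Day libraries were all above night libraries in 5.05% of gene models, as in 4 of the members, and all below in 5.04%, as in 2. In edgeR's quasi-likelihood test over those 24180 gene models all 6 had an adjusted p under 0.05, against 0.666% of gene models (0.256% higher and 0.409% lower by day). Since the choice of members used this contrast, nothing is read from either count. Of the 6 members, 4 had at least 10 reads in every library (HMCN1 and EDIL3 did not), and all 6 passed both filters on low counts that were tried. The median size of the log2 fold change was 1.40 among the 6 and 0.24 among all gene models tested. In bulk tissue, fewer cells of a type and less RNA per cell cannot be told apart.

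**Figure D1:**
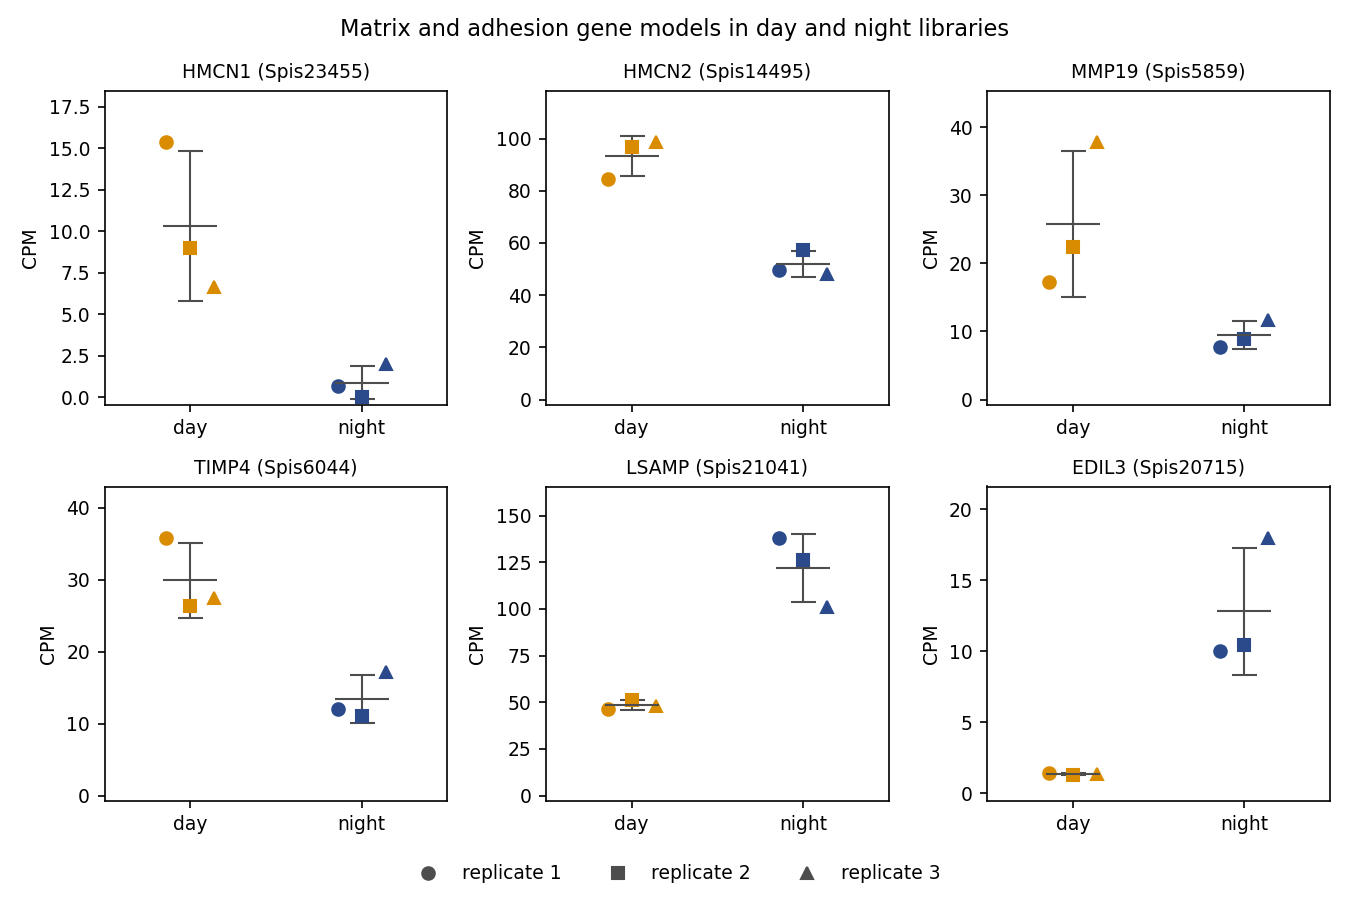
CPM (vertical axis, linear) of each named gene model in 3 day and 3 night libraries, with marker shapes for the replicate number, a horizontal line for the group mean and bars of 1 SD. HMCN1, HMCN2, MMP19 and TIMP4 sit higher by day and LSAMP and EDIL3 higher by night, with the widest day spread relative to the group mean in HMCN1 (6.62 to 15.4 CPM, SD 43.9% of the mean) and MMP19 (17.2 to 37.8 CPM, 41.6%).

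HMCN1 was close to undetected by night. It had 43, 14 and 45 reads in day replicates 1, 2 and 3, and 2, 0 and 5 reads in night replicates 1, 2 and 3. Scaled for depth, these were 15.4, 8.97 and 6.62 CPM in day samples and 0.647, 0 and 1.96 CPM in night samples. The lowest day library therefore stood 3.38 times above the highest night library. The group means were 10.3 ± 4.54 CPM in day samples and 0.868 ± 0.997 CPM in night samples (SD, n = 3 each), and the fitted log2 fold change was 3.41 with a standard error of 0.60, a 10.7-fold higher level by day.

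Few reads carry the HMCN1 difference, 102 in all day libraries against 7 in all night libraries. Counting error alone gives a ratio of 9.88 with an exact 95% interval of 4.62 to 25.2. The empty night replicate 2 allows up to 1.57 CPM, the level of 3 reads in that library. Night replicate 3 had 5 of the 7 night reads, and without it the log2 fold change rose to 4.57. The lowest log2 fold changes were 2.98 without night replicate 2 and 2.99 without day replicate 1. Without night replicate 1 the log2 fold change was 3.17 and the adjusted p from edgeR was 0.064.

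HMCN2, the other hemicentin, had many reads and even replicates. It had 84.4, 96.8 and 98.7 CPM in day samples against 49.8, 57.4 and 48.2 CPM in night samples. Its means were 93.3 ± 7.74 CPM in day samples and 51.8 ± 4.95 CPM in night samples (SD, n = 3 each). The log2 fold change was 0.85 (standard error 0.18), 1.81-fold higher by day and the smallest of the 6. HMCN2 rested on 1445 reads over the libraries, against 109 for HMCN1 and a median of 216 over all gene models with a read. These reads were not scaled by coding length, so they do not rank the abundance of HMCN2. Its dispersion, the spread between replicates beyond counting error, was lower than in most gene models of its level: 13.0% of the 500 gene models nearest to it in mean reads had a lower one, against 88.4% for HMCN1.

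Both hemicentins were thus higher by day, by different amounts. Within a library, HMCN1 had 0.182, 0.0927 and 0.0671 reads for each HMCN2 read in day replicates 1, 2 and 3, and 0.013, 0 and 0.0407 in night replicates 1, 2 and 3. On the log2 scale, with 0.5 read added to each value, this ratio averaged -3.24 ± 0.73 in day samples and -6.08 ± 1.65 in night samples (SD, n = 3 each). The groups did not overlap, and the difference was 2.84, or 2.41 with 1 read added in place of 0.5. Leaving out each library in turn gave 1.98 to 3.63, with the lowest value without the empty night replicate 2.

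MMP19, the protease, had 17.2, 22.4 and 37.8 CPM in day replicates 1, 2 and 3 and 7.77, 8.88 and 11.7 CPM in night replicates 1, 2 and 3. Its means were 25.8 ± 10.7 CPM in day samples and 9.46 ± 2.05 CPM in night samples (SD, n = 3 each). The log2 fold change was 1.48 (standard error 0.31), 2.79-fold higher by day. In both groups replicate 3 was highest and replicate 1 lowest, and the day library was above the same-numbered night library by 1.13, 1.32 and 1.67 on the log2 scale in replicates 1, 2 and 3.

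Day replicate 3 supplied 257 of the 340 MMP19 reads of the day group. It was also the deepest library, and with every library thinned to the size of the smallest the order held, with 20, 35 and 69 reads in day replicates 1, 2 and 3 against 12, 13 and 19 reads in night replicates 1, 2 and 3. Without day replicate 3 the log2 fold change was 1.05 and the adjusted p from edgeR was 0.16. For its level MMP19 had the least even replicates of the 6, with 93.4% of the 500 gene models nearest in mean reads having a lower dispersion.

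TIMP4, the inhibitor, was also higher by day, at 35.8, 26.3 and 27.5 CPM in day samples against 12.0, 11.0 and 17.2 CPM in night samples. Its means were 29.9 ± 5.17 CPM in day samples and 13.4 ± 3.36 CPM in night samples (SD, n = 3 each). The log2 fold change was 1.15 (standard error 0.26), 2.22-fold higher by day. Day replicate 1, the lowest day library for MMP19, was the highest for TIMP4. TIMP4 was the member nearest to the limit of a call, with adjusted p 0.025 in edgeR and 0.057 in DESeq2 as run here. In that DESeq2 run MMP19, at 0.027, was the last of the 6 inside the limit. It called 0.803% of the 18545 gene models to which it gave an adjusted p, and 5 of the 6 members. The study's own DESeq2 run did list TIMP4 as differing between day and night, so the runs disagree on it. Whether the DESeq2 version, the filtering or the form of the counts made the difference was not tested.

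Protease and inhibitor moved in the same direction, and their ratio did not separate day from night. MMP19 had 0.48, 0.854 and 1.37 reads for each TIMP4 read in day replicates 1, 2 and 3. In night replicates 1, 2 and 3 it had 0.649, 0.81 and 0.682. The 3 night values lay within the range of the day values, which spanned 1.51 on the log2 scale against 0.32 in night samples. The log2 ratio averaged -0.27 ± 0.76 in day samples and -0.49 ± 0.17 in night samples (SD, n = 3 each), a difference of 0.21 that was smaller than the spread between day samples.

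The direction of the protease-to-inhibitor ratio was not the same in every pair. It was higher by day in 2 of 3 same-numbered pairs and lower in replicate 1, and without day replicate 3 the difference was -0.15. These ratios compare libraries only: coding lengths are not in the table, so a ratio above or below 1 does not rank protease over inhibitor.

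**Figure D2:**
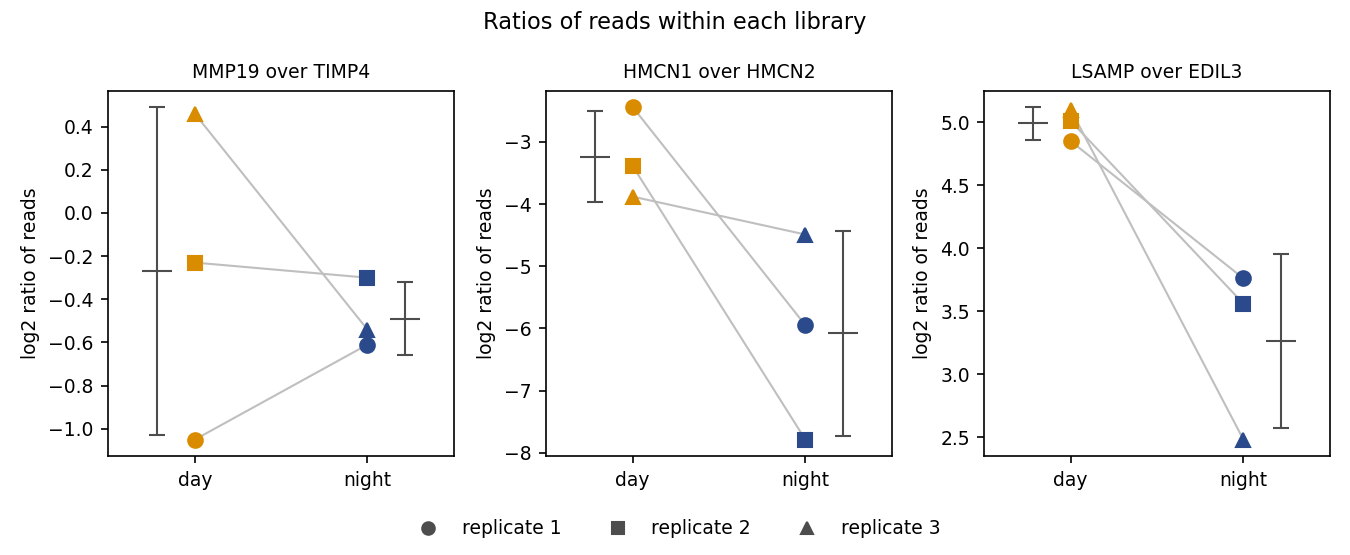
Log2 ratio of reads of the first named gene model to the second within each library (0.5 read added to each), day left and night right, with grey lines joining libraries of the same replicate number and bars for mean ± 1 SD. The night ratios of MMP19 to TIMP4 (-0.61 to -0.30) fall inside the day range (-1.05 to 0.46), while the groups stand apart for HMCN1 over HMCN2 and for LSAMP over EDIL3.

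Both adhesion gene models were lower by day. LSAMP had 46.2, 51.3 and 48.0 CPM in day samples against 138, 126 and 101 CPM in night samples. The day libraries were close together, with the highest 1.11 times the lowest, and the night libraries spread 1.36 times. The means were 48.5 ± 2.6 CPM in day samples and 122 ± 18.4 CPM in night samples (SD, n = 3 each). Its log2 fold change was -1.33 (standard error 0.19), a level 2.52-fold lower by day, from 535 reads in day libraries and 925 in night libraries.

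EDIL3 was close to undetected by day. It had 4, 2 and 9 reads in day replicates 1, 2 and 3 and 31, 20 and 46 reads in night replicates 1, 2 and 3. These were 1.43, 1.28 and 1.32 CPM in day samples against 10.0, 10.4 and 18 CPM in night samples. The lowest night library was 7.01 times the highest day library, the widest gap among the 6. The means were 1.35 ± 0.077 CPM in day samples and 12.8 ± 4.49 CPM in night samples (SD, n = 3 each), and the log2 fold change was -3.22 (standard error 0.44), a level 9.29-fold lower by day.

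The small SD of EDIL3 by day overstates how well that level is known, because it comes from 15 reads. Counting error alone for such reads is 53.6% of the mean, against an observed 5.72%. From the summed reads, the night level was 9.54 times the day level with an exact 95% interval of 5.51 to 17.7, which covers counting error only. With libraries thinned to the smallest, where EDIL3 had 1, 2 and 0 day reads, the log2 fold change was -4.44. LSAMP had 32.2, 40.0 and 36.2 reads for each EDIL3 read in day replicates 1, 2 and 3, and 13.7, 12.1 and 5.63 in night replicates 1, 2 and 3, so EDIL3 was the more strongly lowered by day in every pair. The log2 ratio averaged 4.99 ± 0.13 in day samples and 3.26 ± 0.69 in night samples (SD, n = 3 each), and the groups did not overlap.

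Library by library, no day or night replicate was high in all 6 members. Relative to its group mean on the log2 scale, day replicate 1 was above in 3 members, day replicate 2 in 3 and day replicate 3 in 2. Night replicates 1 and 2 were each above in 2 and night replicate 3 in 4. HMCN1, MMP19, TIMP4 and EDIL3 were all highest by night in night replicate 3, where LSAMP (101 CPM) and HMCN2 (48.2 CPM) were lowest. Each of the 6 members had the same sign in 3 of 3 same-numbered pairs, which follows from day and night libraries that did not overlap.

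How far the calls depend on the tool divided the members. LSAMP and EDIL3 passed under each of 16 alternatives (other tools, filters, a replicate block, thinned libraries, and each library left out), with adjusted p values in edgeR of at most 0.0013 for LSAMP and 0.0011 for EDIL3 when a library was left out. HMCN1 did not pass in 2 of the 16, HMCN2 in 5, MMP19 in 5 and TIMP4 in 8. With the replicate number as a block in edgeR all 6 passed, where 1.69% of gene models did. Of the 6, limma-voom called 2, against 0.461% of the 17122 gene models it tested. DESeq2 with the block called 3, against 0.708% of the 18085 to which it gave an adjusted p. The direction of each of the 6 was the same in every alternative run, which groups that do not overlap make likely beforehand.

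**Figure D3:**
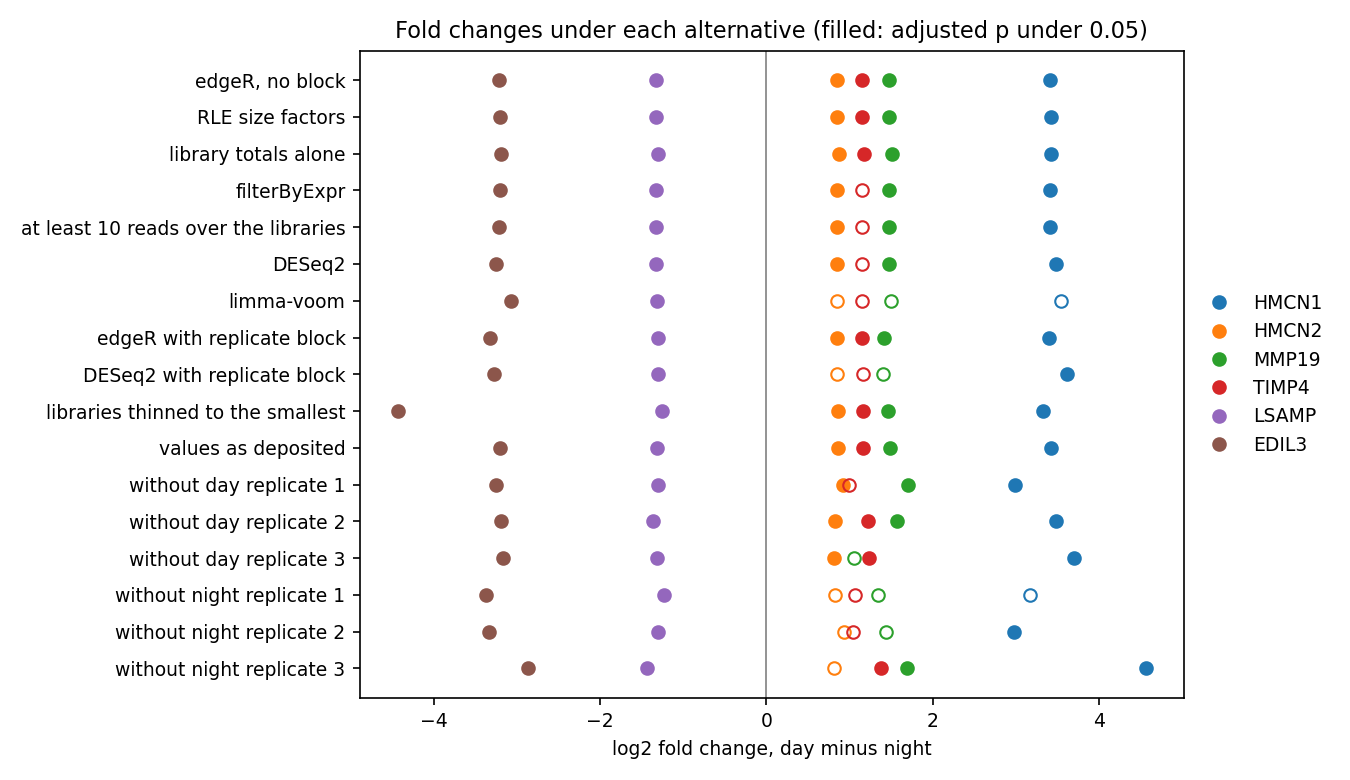
Log2 fold change, day minus night (horizontal axis), of the 6 named gene models under the edgeR test without a block and 16 alternatives (rows), with filled circles for an adjusted p under 0.05. No circle crosses 0. EDIL3 and LSAMP are filled in every row, while TIMP4 is open in 8 of the 16 alternatives.

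Of the other gene models in the study's list, 4 were also followed, and they fell on both sides. Their hits are an adhesion receptor, a protein with MAM and LDL-receptor repeats, a protease inhibitor and an adaptor tied to matrix breakdown. LAR (Spis17942), a receptor tyrosine phosphatase with adhesion-type repeats that guides axons in flies, had 380, 347 and 350 CPM in day samples against 900, 738 and 529 CPM in night samples. MALR1 (Spis16164), named after a human protein with MAM and LDL-receptor class A repeats, had 32.6, 38.5 and 36.2 CPM in day samples against 94.8, 99.7 and 91.6 CPM in night samples. CPI1 (Spis1325), named after a pig inhibitor of cysteine proteinases, had 27.2, 26.3 and 24.0 CPM in day samples against 51.5, 48.0 and 54.8 CPM in night samples. All 3 were lower by day, with groups that did not overlap.

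SPD2B (Spis13911), an adaptor of podosomes, the matrix-degrading contacts of mammalian cells, went the other way. It had 69.4, 53.8 and 44.6 CPM in day samples against 25.9, 35.5 and 20.4 CPM in night samples, again with no overlap. The log2 fold changes were 1.04 for SPD2B, -1.01 for LAR, -1.42 for MALR1 and -1.0 for CPI1, and in edgeR 4 of 4 passed, SPD2B above and the other 3 below their night level, against 0.666% of all gene models. The study chose these on the same contrast, so that count says nothing independent. LAR did not pass in 8 of the 16 alternatives (adjusted p of 0.074 with filterByExpr in edgeR, 0.11 with limma-voom and 0.29 without night replicate 1 in edgeR), SPD2B in 7 (0.061 with filterByExpr in edgeR, 0.14 with limma-voom and 0.19 without day replicate 1 in edgeR), CPI1 in 3 and MALR1 in 0. CPI1, named after an inhibitor of cysteine proteinases, was lower by day, and TIMP4, named after an inhibitor of metalloproteinases, was higher. MMP19 and SPD2B, tied to matrix breakdown by name only, were both higher, and a shared direction of matrix breakdown was not tested. The value of CPI1 depends on the form of the table, because its deposited row also holds reads of longer IDs: taken as deposited, its log2 fold change was -0.13.

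Gene models with ID numbers within 3 of a member played no part in the choice of members and could be tested. There were 36 of these, none of them in the study's list, and 35 had a read. By edgeR's quasi-likelihood test 0 of 35 passed an adjusted p of 0.05, against 0.666% of all gene models. With a share that low, 0 of 35 tells little about the neighbours. An unadjusted p under 0.05 was found in 2 of 35, against 5.35% of all gene models. The median size of their log2 fold change was 0.18, below the 0.24 of all gene models. DESeq2 and limma-voom, which left out some gene models with few reads, also called 0. The study's list was made with DESeq2 on these libraries and holds none of the neighbours, so the DESeq2 count adds little. A neighbouring number is not a known neighbouring place, since the reference used here does not place these IDs on chromosomes.

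Beside MMP19, Spis5860 had 20, 6 and 54 reads in the day libraries against 6, 6 and 9 in the night libraries, a log2 fold change of 1.22 (standard error 0.46). Spis23458, 3 numbers from HMCN1, had 14, 1 and 3 reads in the day libraries against 0, 1 and 0 in the night libraries, so 14 of its 19 reads came from day replicate 1. These were the 2 with an unadjusted p under 0.05, and their adjusted p values from edgeR were 0.61 and 0.65. With the replicate block in edgeR 1 of 35 passed, against 1.69% of all gene models. It was Spis5856, with 75, 9 and 17 reads in the day libraries against 7, 10 and 4 in the night libraries (adjusted p = 0.0014 with the replicate block in edgeR, 1.0 with the block in DESeq2). These 3 were chosen after their values were seen.

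**Figure D4:**
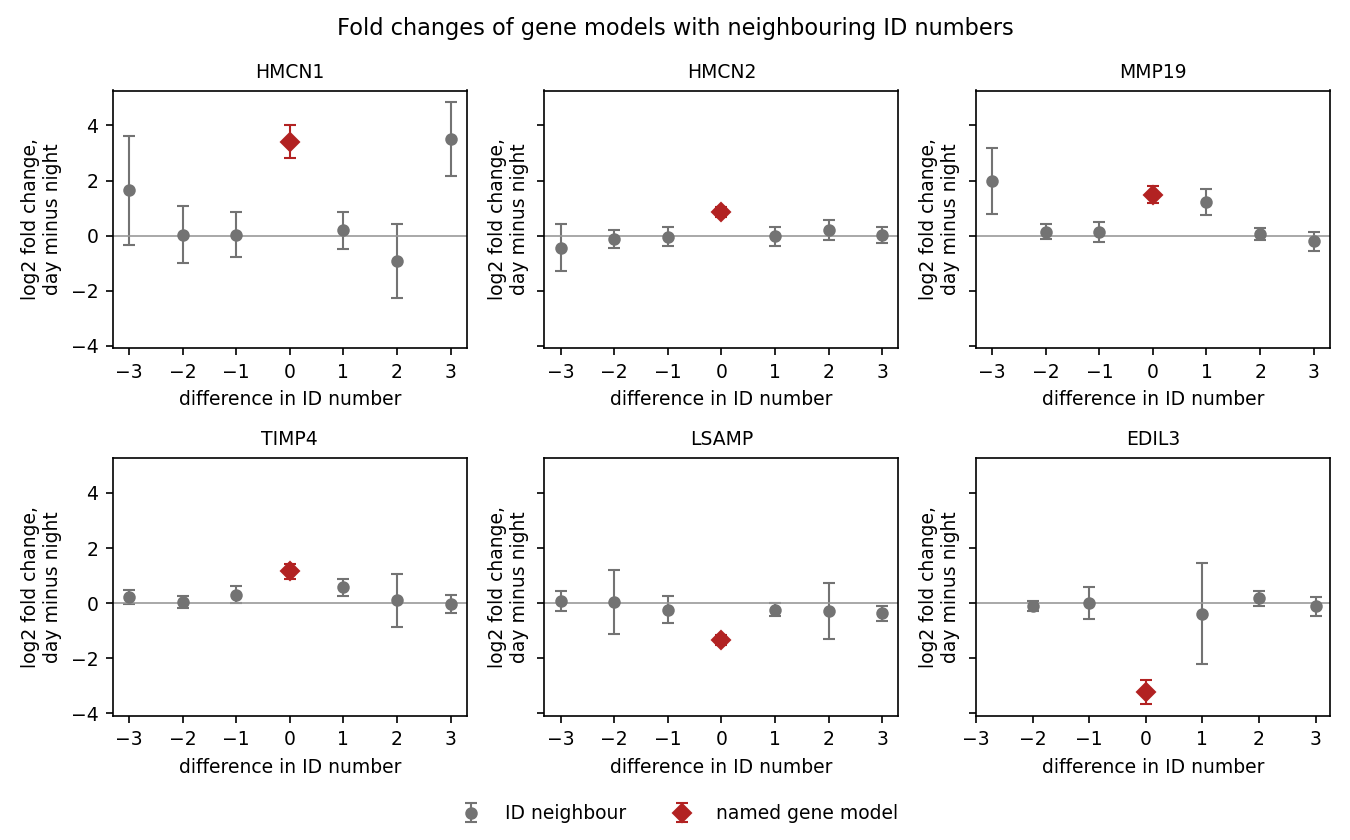
Log2 fold change, day minus night, with its standard error (vertical axis) for each named gene model (red diamond) and for the gene models whose ID numbers differ from it by up to 3 (grey circles, horizontal axis). Neighbours mostly lie near 0, and those that stand as high as the named gene model, near HMCN1 and MMP19, did not pass edgeR's test without a block.

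The gene models most like each member in pattern were found by Pearson r of log2(CPM + 1) over the 6 libraries, against 14262 gene models with at least 10 reads in every library. Pearson r ignores the size of a change. Those named below had smaller log2 fold changes than their member, except for HMCN2 (0.89 for Spis968 and 2.69 for PAX3B, against 0.85). Spis4424.t3 had -0.24 against -3.22 for EDIL3, and Spis3492 had 0.56 against 3.41 for HMCN1. With 6 points in 2 groups, chosen as the highest of so many, such r values run high and describe these libraries only. HMCN1 was most like Spis3492 (r = 0.998) and Spis1584 (0.996), and among named gene models like PDIA4 (Spis14927), a protein disulfide isomerase (0.994). HMCN2 was most like Spis968 (r = 0.997) and PAX3B (Spis374), a transcription factor of the PAX family (0.991).

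MMP19 was most like Spis21609 and Spis6350 (r = 0.985 each), and among named ones like CREM (Spis4729), a transcription factor that responds to cyclic AMP in mammals (0.971). TIMP4 was most like Spis2904 (r = 0.994) and Spis4720 (0.992), and among named ones, as for HMCN1, like PDIA4 (0.987). LSAMP was most like Spis18731 (r = 0.999) and Spis1615 (0.991), with HECD3 (Spis4052), a ubiquitin ligase, the nearest with a gene name (0.989). EDIL3 was most like Spis16302, named RNMT after a bacterial methyltransferase (r = 0.996), and Spis4424.t3 (0.994). HMCN1 and EDIL3 had too few reads in some libraries to be among the gene models compared, so neither could be named for another member. None of the remaining members was named here for another member.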

How the data were processed

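SOLiD colorspace reads of poly(A) RNA were aligned by the authors, with Bowtie (version 1.2.3 by the submitters' processing notes), to 1 coding sequence per gene model, the longest, and counted with a script of theirs. The deposited counts are whole numbers, not normalized or pooled. A row whose ID begins longer IDs also holds their reads (2371 rows, 9.2%). These were subtracted, longest IDs first, which left 0 values below 0 and made the totals match the study's numbers of mapped reads exactly in 6 of 6 libraries. No member had a longer ID, so the reads of 6 of 6 members are as deposited and only their scaling was affected. Strand was not stated for the counting.

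Day was compared with night, 3 libraries each, with edgeR 4.0.16 in R 4.3.3: TMM (factors 0.974 to 1.027), estimateDisp, a robust quasi-likelihood F test, two-sided, and Benjamini-Hochberg adjustment over 24180 gene models, 1589 without a read being removed. Standard errors are the log2 fold change over the square root of F. A gene with 10 reads has a counting error of 31.6%. Intervals of summed reads are exact (Clopper-Pearson) and, with no molecular identifiers, cover counting error only. No pair of libraries agreed within counting error (chi-square over degrees of freedom between 4.82 and 18.9). Alternatives were RLE factors, library totals, DESeq2 1.42.0, filterByExpr, a floor of 10 reads summed over libraries, limma-voom (limma 3.58.1), a replicate block, thinned libraries, the values as deposited, and leaving out each library. The fit was checked on simulated counts.

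Same-numbered day and night libraries deviated together over 14262 gene models (correlations 0.24, 0.20 and 0.37, against -0.28 to 0.09 for different numbers). The labels do not name them as pairs. With 3 libraries per group there are few ways to match them, so these correlations do not settle the pairing. The reported fold changes, standard errors and p-values come from the fit without a block, and a blocked fit is among the alternatives. The members and lists were chosen with earlier results of these data known. Named are the 6 members, 4 other gene models of the study's list of day-night differences, ID neighbours that passed with or without the block (1) or had an unadjusted p under 0.05 (2, added after their values were seen), and for each member the 2 gene models most like it in pattern and the most alike one with a gene name. The fold changes and p-values of that list decided which gene models it holds, and so which are described here, but none of its values is printed or entered a computation, and 0 of the IDs matched the RefSeq gene table given (jaStyPist1.2). Python 3.11.15, pandas 2.3.3, numpy 2.4.6, scipy 1.17.1 and matplotlib 3.10.9 were used for tables and figures.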

Additional observations from a re-analysis of the deposited data

How the results depend on the processing

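Of 96 refits of the 6 members, 76 kept both direction and call, 20 lost the call and 0 reversed. HMCN1 lost its call with limma-voom (log2 fold change 3.55, adjusted p = 0.083), and HMCN2 (0.85, 0.059), MMP19 (1.5, 0.18) and TIMP4 (1.15, 0.10) did so too, leaving 2 of 6 called. In the blocked DESeq2 fit HMCN2 (0.85, adjusted p = 0.057), MMP19 (1.40, 0.0504) and TIMP4 (1.16, 0.172) were lost, leaving 3. TIMP4 alone was lost in DESeq2 without the block (1.15, adjusted p = 0.057), with filterByExpr (1.15, 0.051) and with a minimum of 10 reads (1.15, 0.057). The replicate block in edgeR ended no call of the 6. Leaving out each library in turn gave log2 fold changes of 2.98 to 4.57 for HMCN1, 0.81 to 0.93 for HMCN2, 1.05 to 1.71 for MMP19, 1.00 to 1.38 for TIMP4, -1.44 to -1.23 for LSAMP and -3.38 to -2.87 for EDIL3. The count of called members was then 2 to 6, with 2 without night replicate 1 and 3 without night replicate 2. HMCN2 was lost without any of the 3 night libraries (adjusted p 0.067 to 0.13 from edgeR), MMP19 without day replicate 3 or night replicate 1 or 2 (0.11 to 0.16), and TIMP4 without day replicate 1 or night replicate 1 or 2 (0.20 to 0.26).

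The count of all called gene models was 161, against 409 with the replicate block in edgeR, 79 with limma-voom and 94 to 233 leaving out each library. The 4 gene models LAR, MALR1, CPI1 and SPD2B fell to 2 called with filterByExpr, with a minimum of 10 reads and with limma-voom. They fell to 1 to 3 called leaving out each library, the 1 being without night replicate 1. Of the ID neighbours 1 was called with the replicate block in edgeR and 0 to 0 leaving out each library. The ratio of LSAMP to EDIL3 differed by 1.72 on the log2 scale, and by 3.04 in thinned libraries, where EDIL3 had 1, 2 and 0 day reads. Leaving out each library gave 1.33 to 1.97 for it, 1.98 to 3.63 for HMCN1 over HMCN2 and -0.15 to 0.60 for MMP19 over TIMP4. The causes of these losses of calls were not tested.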
